A study of Mus musculus with 4 samples.

Results

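The 9 repair growth factor genes described here were Vegfa, Tgfb1, Lrg1, Igf1, Hbegf, Areg, Pdgfa, Pdgfb and Grn, which are 9 of the 31053 genes counted. They were chosen by symbol, as genes whose products are known to act in wound repair, and each was matched to a single gene row. Their mRNA was followed in leukocytes of mouse skin wounds, across cell types, 2 genotypes and 2 time points. Live CD45+ cells, which are leukocytes, were sorted from 3 mm excisional wounds of the dorsal skin of male mice, labelled C57BL6/J in all 4 libraries, and sequenced as 4 droplet libraries of 3' ends. Each genotype, Angptl4+/+ and Angptl4-/-, gave 1 library on the first and 1 on the fifth day post wounding (dpw). Angptl4 encodes a secreted inhibitor of lipoprotein lipase. The deletion was in the germline, so that in Angptl4-/- mice the leukocytes and the skin around them both lacked the gene, and the number of mice behind each library was not given. An age of 8 weeks was stated for the wild-type mice, and the mice of the 2 genotypes were obtained from different sources, so source and genotype cannot be told apart. Angptl4 had 47 and 78 UMIs (unique molecular identifiers, 1 per captured mRNA) in Angptl4+/+ cells at 1 and 5 dpw and 0 in both Angptl4-/- libraries.

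Growth factors released in a wound drive new vessels, matrix and epidermis, and leukocytes are a known source of many of them. Vegfa encodes the vascular endothelial growth factor that starts vessel sprouting. Tgfb1 encodes TGF-β1, which drives fibroblasts to lay down matrix and is secreted in a latent form, and Lrg1 encodes a secreted glycoprotein that binds the TGF-β coreceptor endoglin and is stored in neutrophil granules. Hbegf and Areg encode 2 ligands of the EGF receptor, HB-EGF and amphiregulin, which are cut from the cell surface and act on keratinocytes. Pdgfa and Pdgfb encode the 2 chains of classical PDGF, a mitogen of fibroblasts and pericytes, and Igf1 encodes insulin-like growth factor 1. Grn encodes progranulin, a secreted and lysosomal protein that dampens inflammation until neutrophil proteases cut it into granulins.

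The filter passed 5346 Angptl4+/+ cells at 1 dpw and 4945 at 5 dpw, and 4798 and 4738 Angptl4-/- cells. Their summed UMIs ranged from 26898397 to 32815888 per library and the median per cell from 3735.5 to 4975.5. The cells formed 14 clusters, named from marker lists, of which 7 were neutrophil-like and 2 macrophage-like, and the monocyte-like, dendritic cell-like and NK cell/T cell-like classes were 1 cluster each. A B cell-like cluster of 55 cells and a plasmacytoid dendritic cell-like cluster of 33 cells were too small for comparisons. Any pair of libraries shared 5 to 15 cell barcodes. A level is given as UMIs of the gene per 1000000 UMIs of the class (CPM), with an exact Poisson 95% interval in parentheses. A difference is the log2 ratio of 2 such levels with an exact conditional binomial 95% interval, and it was called where it passed 2-fold with at least 50 UMIs in the 2 libraries together. Each group was 1 library, so there was no replicate check and no test, and every interval covers counting error only. The 4 comparisons share libraries and are not independent of each other.

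Where the counts lie on the genome is as follows, on GRCm38. Vegfa spans chr17:46016993-46032369 and Lrg1 chr17:56119678-56122001, both on the minus strand of the chromosome that carries Angptl4, 12.2 Mb and 22.3 Mb from it. Tgfb1 lies at chr7:25687002-25705077, Igf1 at chr10:87858265-87937042, Areg at chr5:91139599-91148432, and Grn at chr11:102430315-102437048, all on the plus strand. Pdgfa at chr5:138976014-138997370 and Pdgfb at chr15:79995874-80014977 are on the minus strand. All 9 are annotated as protein-coding genes.

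Vegfa and Areg are shown with the bases just before their start sites because they were the 2 members past 2-fold lower at 5 dpw in macrophage-like cells of both genotypes, and Pgk1 and Hif1a because their pattern over clusters was among the 3 most like that of Vegfa. Pgk1 encodes a glycolytic kinase and Hif1a the hypoxia-inducible factor HIF-1α. The 250 bases upstream of each start were read from RefSeq on GRCm38.p6, and none of the 4 windows overlapped an annotated exon. Promoters of 7 of the 9 members were searched, since none was listed for Pdgfb and Hbegf was left out. Capitals mark ACGTG, the core of the hypoxia response element, on either strand, and TGACGTCA, the cAMP response element. The windows are chr17:46032378-46032627 on the minus strand for Vegfa, chrX:106186850-106187099 on the plus strand for Pgk1, chr12:73907617-73907866 on the plus strand for Hif1a and chr5:91139349-91139598 on the plus strand for Areg.
Vegfa: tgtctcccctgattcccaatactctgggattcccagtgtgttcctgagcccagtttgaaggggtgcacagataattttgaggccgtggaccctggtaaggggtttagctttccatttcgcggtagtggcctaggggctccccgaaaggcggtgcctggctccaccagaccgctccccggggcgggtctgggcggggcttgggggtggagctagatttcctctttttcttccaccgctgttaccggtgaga
Pgk1: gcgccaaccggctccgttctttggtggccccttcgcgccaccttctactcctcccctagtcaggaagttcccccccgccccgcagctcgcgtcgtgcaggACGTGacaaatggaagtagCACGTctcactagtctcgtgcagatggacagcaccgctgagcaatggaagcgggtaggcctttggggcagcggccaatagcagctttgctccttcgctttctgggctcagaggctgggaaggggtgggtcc
Hif1a: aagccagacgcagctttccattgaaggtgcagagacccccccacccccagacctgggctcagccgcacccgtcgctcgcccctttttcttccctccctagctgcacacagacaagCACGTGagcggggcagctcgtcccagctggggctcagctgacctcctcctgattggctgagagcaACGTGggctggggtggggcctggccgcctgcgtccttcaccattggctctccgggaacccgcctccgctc
Areg: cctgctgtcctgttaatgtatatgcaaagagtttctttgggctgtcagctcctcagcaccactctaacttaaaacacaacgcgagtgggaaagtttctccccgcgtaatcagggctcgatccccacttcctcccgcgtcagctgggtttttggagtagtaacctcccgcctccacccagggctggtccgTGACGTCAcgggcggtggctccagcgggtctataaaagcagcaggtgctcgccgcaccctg
ACGTG was found in the windows of Pgk1 and Hif1a and in 16.6% of all 32851 listed promoters. In the Hif1a window the palindrome CACGTG was read on both strands. ACGTG was also in the windows of Lrg1 and of Bnip3, the gene most like Vegfa, which overlap annotated exons and are not shown. It was not in the Vegfa window shown, and a second listed Vegfa start, whose window lies over annotated exons, held it once. The Areg window held TGACGTCA from 61 to 54 bases before the start, as did 1.55% of all promoters somewhere in theirs. TGANTCA, an AP-1-like pattern searched with any base in the middle, was held by 6.75% of all promoters. It was found as TGAATCA in the Igf1 window, which overlaps 2 annotated exons, and in none of the 4 shown. These matches describe letters in a window, not binding, and bases further upstream were not searched.

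Growth factor mRNAs were divided among the leukocyte classes, and 6 of the 9 had their highest level among the 5 classes compared in the same class in all 4 libraries. Vegfa, Igf1, Pdgfa and Grn were highest in macrophage-like cells, Tgfb1 in monocyte-like cells and Lrg1 in neutrophil-like cells. For Igf1 in the Angptl4-/- library at 1 dpw and for Pdgfa in both libraries at 1 dpw, macrophage-like cells did not differ from dendritic cell-like cells beyond counting error, with log2 ratios between the classes of 0.10 (-1.09 to 1.51), 0.29 (-0.86 to 1.68) and 0.57 (-0.24 to 1.5). Hbegf, Areg and Pdgfb had no class that was highest in every library. These classes had very different depths, with a median of 3218.5 to 4682.5 UMIs per neutrophil-like cell and 5898 to 11536 per macrophage-like cell.

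**Figure D1:**
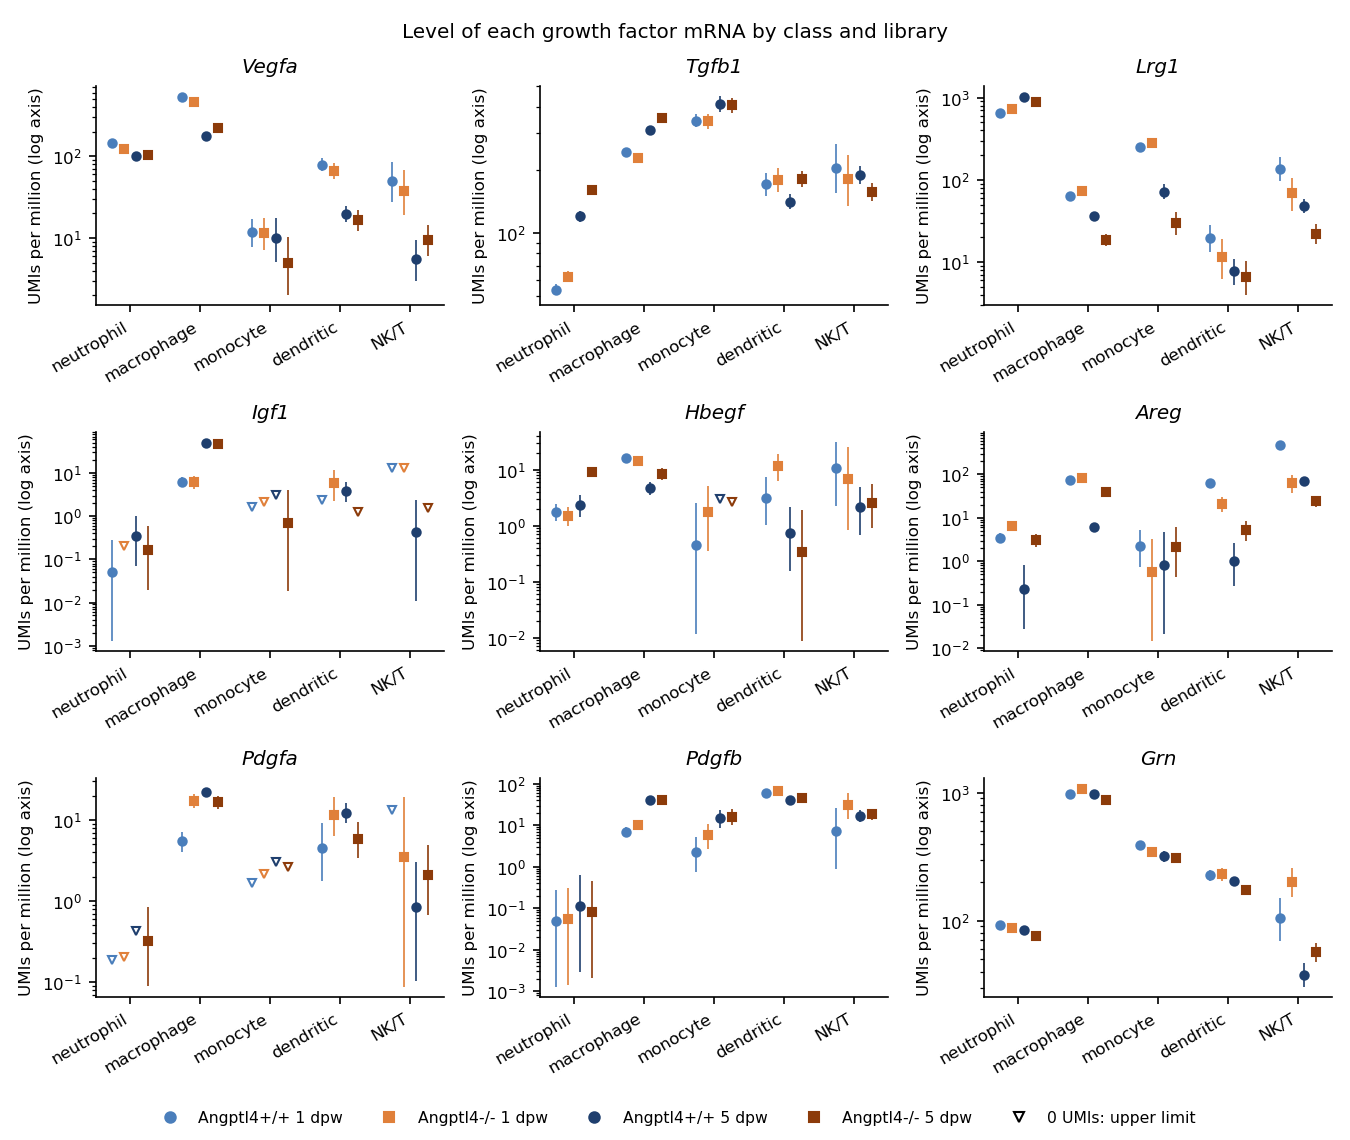
Level of each gene in 5 leukocyte classes. The y axis is UMIs per 1000000 UMIs of the class on a log axis, each point is 1 library, bars are exact Poisson 95% intervals, and open triangles mark the upper limit where the count was 0. Vegfa and Grn points of macrophage-like cells sit above those of the other classes in each library, and the Lrg1 points of neutrophil-like cells sit between 661 and 1029.

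Vegfa was highest in macrophage-like cells and lower there at 5 than at 1 dpw in both genotypes. Macrophage-like cells held 532 CPM (517–547) in Angptl4+/+ wounds at 1 dpw and 176 CPM (168–183) at 5 dpw. In Angptl4-/- wounds they held 456 CPM (439–474) at 1 dpw and 221 CPM (211–232) at 5 dpw. Both 1 dpw libraries were above both 5 dpw libraries. Between 5 and 1 dpw the log2 ratio was -1.60 (-1.67 to -1.53) for Angptl4+/+ and -1.05 (-1.14 to -0.96) for Angptl4-/- cells, and the second of these was -0.94 with every cell thinned to 1000 UMIs and -0.88 with each cell weighing the same, no longer past 2-fold. Between genotypes the log2 ratio of Angptl4-/- to Angptl4+/+ was -0.22 (-0.29 to -0.15) at 1 dpw and 0.33 (0.24 to 0.42) at 5 dpw, neither past 2-fold.

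The share of macrophage-like cells with a Vegfa UMI moved the same way as the level. It was 73.6% and 39.6% in Angptl4+/+ cells at 1 and 5 dpw, and 64.8% and 45.0% in Angptl4-/- cells. After each cell was thinned to 1000 UMIs the shares were 37.4%, 14.1%, 32.5% and 16.0% in the same order, so the order held at equal depth. Monocyte-like cells, at a median of 9499.5 to 14686 UMIs per cell, had Vegfa at 4.98 to 11.8 CPM. At 1 dpw that was 8.11% and 9.47% of the neutrophil-like level in Angptl4+/+ and Angptl4-/- wounds, where neutrophil marker mRNAs in the same monocyte-like cells stood at a median of 6.4% and 5.03% of theirs. At 5 dpw it was 9.87% and 4.78%, against medians of 11.3% and 7.45%. Vegfa was thus above the marker median at 1 dpw and below it at 5 dpw, within the range of the 10 markers in each library, and the part of RNA from other cells in it was not tested.

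Neutrophil-like cells held Vegfa at 145 CPM (139.7–150.3) at 1 dpw and 101 CPM (94.2–108) at 5 dpw in Angptl4+/+ wounds, and at 122 CPM (117–127) and 104 CPM (98.7–110.2) in Angptl4-/- wounds. As the most numerous class, neutrophil-like cells held 26.7% to 44.6% of the Vegfa UMIs of a library, against 53.2% to 70.0% in macrophage-like cells. The neutrophil-like log2 ratio of 5 to 1 dpw was -0.52 (-0.64 to -0.41) for Angptl4+/+ and -0.22 (-0.33 to -0.13) for Angptl4-/- wounds. Scaled by median-of-ratios size factors, which take out the shift of all genes between days described with Tgfb1, it was -1.24 and -0.97. Dendritic cell-like cells had 78.9 and 66.6 CPM at 1 dpw and 19.8 and 16.6 CPM at 5 dpw in Angptl4+/+ and Angptl4-/- wounds. Dendritic cell-like log2 ratios of 5 to 1 dpw were -1.99 (-2.42 to -1.57) and -2.0 (-2.55 to -1.47), both past 2-fold. The Angptl4-/- value was -0.59 when the libraries were clustered without integration and was no longer past 2-fold.

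**Figure D2:**
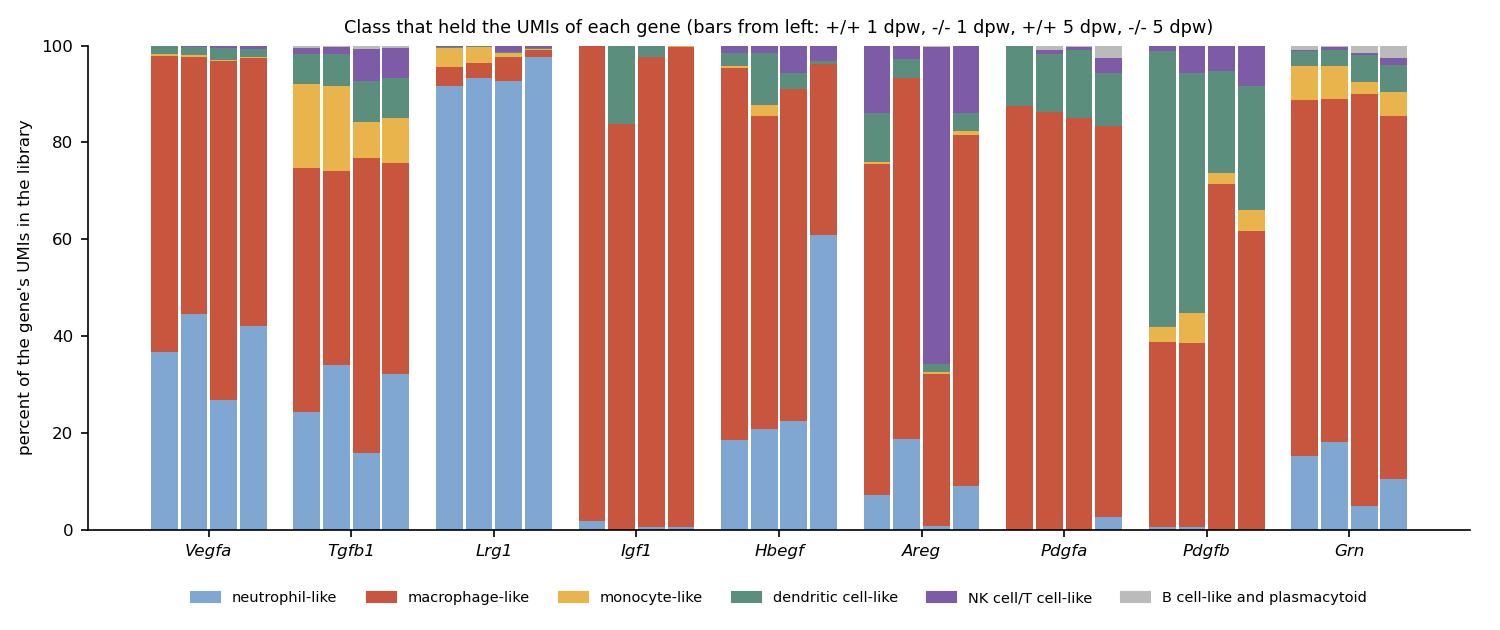
Share of each gene's UMIs in a library that lay in each class, in percent, with 4 bars per gene, 1 per library. Macrophage-like cells held 83.7% to 99.2% of the Igf1 UMIs and neutrophil-like cells 91.6% to 97.7% of the Lrg1 UMIs.

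Placental growth factor and the VEGF receptors were counted beside Vegfa. Of 9 other VEGF ligands and receptors, 6 had enough UMIs in macrophage-like cells for the 5 against 1 dpw comparison in Angptl4+/+ wounds, where 1 was past 2-fold higher and 2 past 2-fold lower, and 5 in Angptl4-/- wounds, where 1 was higher and 1 lower. Of all genes with enough UMIs, 12.7% and 9.43% passed 2-fold in these comparisons, and the list counts in macrophage-like cells are to be read beside these shares. Pgf, a VEGF homologue that binds FLT1, was at 44.2 CPM at 1 dpw and 11.6 at 5 dpw in Angptl4+/+ cells. In Angptl4-/- cells it was at 37.5 and 31.8 CPM. Its log2 ratio of Angptl4-/- to Angptl4+/+ at 5 dpw was 1.45 (1.15 to 1.75), and the log2 ratio of Flt1, which encodes its receptor, was -1.10 (-1.58 to -0.64). The coreceptor Nrp1 was higher at 5 dpw, with 49.1 and 142 CPM in Angptl4+/+ and 51.9 and 124 CPM in Angptl4-/- cells.

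Over its 50 cluster and library points with at least 20 cells, the Vegfa level on the scale of log2(CPM + 1) ran closest to that of Bnip3, a hypoxia-induced mitophagy gene (Pearson r 0.92), then to Pgk1 (0.88) and Hif1a (0.85), among 7099 genes. The points share libraries, depth and the class structure, so these correlations are descriptions.

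Tgfb1 mRNA was spread over all classes and was highest in monocyte-like cells. These held 342 CPM (318–368) and 411 CPM (376–449) at 1 and 5 dpw in Angptl4+/+ wounds, and 339.9 CPM (313–369) and 405 CPM (373–439.9) in Angptl4-/- wounds. A Tgfb1 UMI was seen in 90.2% to 96.0% of monocyte-like cells. Macrophage-like cells came next in all 4 libraries, with 244 and 308 CPM in Angptl4+/+ and 228 and 351 CPM in Angptl4-/- wounds. At 1 dpw they did not differ from NK cell/T cell-like cells beyond counting error. The log2 ratios between these classes were 0.25 (-0.13 to 0.66) for Angptl4+/+ and 0.34 (-0.06 to 0.77) for Angptl4-/- wounds. No Tgfb1 difference in monocyte-like or macrophage-like cells passed 2-fold. The log2 ratios of Angptl4-/- to Angptl4+/+ ran from -0.10 to 0.19 in monocyte-like and macrophage-like cells, and those of 5 to 1 dpw from 0.25 to 0.62.

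Neutrophil-like cells had less Tgfb1 than the other 4 classes at 1 dpw and more at 5 dpw than at 1 dpw, with 53.8 CPM (50.6–57.2) and 120.3 CPM (113–128) in Angptl4+/+ wounds and 61.9 CPM (58.4–65.6) and 161 CPM (154–168) in Angptl4-/- wounds. The log2 ratios of 5 to 1 dpw were 1.16 (1.04 to 1.28) and 1.38 (1.27 to 1.48), past 2-fold in both genotypes. In neutrophil-like cells, however, the median of all genes was itself higher at 5 dpw, by 0.72 for Angptl4+/+ and 0.75 for Angptl4-/- on the log2 scale, and 36.5% and 39.1% of all genes with enough UMIs there passed 2-fold. With the day scaled by median-of-ratios size factors, the Tgfb1 log2 ratios were 0.44 and 0.63 and no longer passed 2-fold. The share of cells with a Tgfb1 UMI, thinned to 1000 UMIs per cell, was 6.02% at 1 dpw and 10.5% at 5 dpw for Angptl4+/+ and 5.93% and 13.0% for Angptl4-/-.

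Lrg1 was a neutrophil mRNA among these sorted leukocytes. Neutrophil-like cells held it at 661 CPM (649–672) and 1029 CPM (1007–1050) at 1 and 5 dpw in Angptl4+/+ wounds and at 732 CPM (720.1–745) and 884 CPM (868–901) in Angptl4-/- wounds, which was 91.6% to 97.7% of all Lrg1 UMIs of a library. The share of neutrophil-like cells with an Lrg1 UMI was 55.3% to 56.9% in the 4 libraries, which differ in depth. Thinned to 1000 UMIs per cell it was 31.8% and 40.9% at 1 and 5 dpw in Angptl4+/+ and 34.8% and 39.8% in Angptl4-/- wounds. The log2 ratio of 5 to 1 dpw was 0.64 in Angptl4+/+ and 0.27 in Angptl4-/- cells by CPM, and the sign turned, to -0.08 and -0.47, after scaling by median-of-ratios size factors, so no direction between days can be given. Between genotypes it was 0.15 (0.11 to 0.18) at 1 dpw and -0.22 (-0.26 to -0.18) at 5 dpw.

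Monocyte-like cells carried Lrg1 at 1 dpw. Their level was 248 CPM (228–269.9) in Angptl4+/+ and 285 CPM (260.0–311) in Angptl4-/- wounds at 1 dpw, or 37.6% and 38.8% of the neutrophil-like level, where the neutrophil markers stood at a median of 6.4% and 5.03%. At 5 dpw it was 72.1 CPM (57.8–89.0) and 29.9 CPM (21.6–40.4), or 7.01% and 3.38% against medians of 11.3% and 7.45%. The log2 ratios of 5 to 1 dpw were -1.78 (-2.13 to -1.45) and -3.25 (-3.74 to -2.79). At 5 dpw the log2 ratio of Angptl4-/- to Angptl4+/+ was -1.27 (-1.84 to -0.72). It was -0.60 without likely doublets and -0.99 with each cell weighing the same, no longer past 2-fold. The part of neutrophil RNA in the Lrg1 of monocyte-like cells was not tested. In macrophage-like cells Lrg1 ranged from 18.6 to 73.4 CPM, which was 2.11% to 10.0% of the neutrophil-like level and within the range of the neutrophil markers there, and the part of neutrophil RNA in it was not tested. The Lrg1 log2 ratio of 5 to 1 dpw in Angptl4-/- macrophage-like cells was -1.98, and it was -0.70 with cells thinned to 1000 UMIs and -0.97 at resolution 1.0, no longer past 2-fold.

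Within neutrophil-like cells the 3 members were uneven across clusters, and the order of Lrg1 was not that of Tgfb1 or Vegfa. With the 4 libraries summed, Lrg1 was at 1528 CPM in the cluster led by Pglyrp1, Ngp and Ly6g, whose own top genes include Lrg1, and at 99.4 CPM in the cluster led by Cldn1, Fnip2 and Syne1. Vegfa was lowest in the first of these, at 62.7 CPM, and at 192 CPM in the second. Tgfb1 was at 38.5 CPM in the first and reached 233 CPM in the cluster led by the cytokine genes Csf3 and Il1a. Over clusters and libraries, Lrg1 ran closest to Ppp1r3d and to the chemokine receptor gene Cxcr2, with Pearson r of 0.92 for both.

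Of 13 other genes for TGF-β ligands, latency and activation, 5 had enough UMIs in macrophage-like cells. In Angptl4+/+ cells 1 was past 2-fold higher and 1 lower at 5 dpw, and in Angptl4-/- cells 1 was lower. Thbs1, which encodes thrombospondin-1, an activator of latent TGF-β, was at 6069 and 1339 CPM at 1 and 5 dpw in Angptl4+/+ macrophage-like cells and at 5689 and 2232 CPM in Angptl4-/- cells. In Angptl4+/+ neutrophil-like cells Thbs1 was higher, at 8678 and 4250 CPM at 1 and 5 dpw. The part of neutrophil RNA in the Thbs1 of macrophage-like cells was not tested. Among 14 receptors and Smads, Eng, which encodes endoglin, was at 6.79 and 17.0 CPM in Angptl4+/+ and 5.13 and 16.9 CPM in Angptl4-/- macrophage-like cells. Acvrl1, which encodes the receptor ALK1, was at 177 and 54.7 CPM in Angptl4+/+ and 175 and 50.04 CPM in Angptl4-/- neutrophil-like cells. None of the genes of these 2 lists passed 2-fold between genotypes in neutrophil-like cells, and in macrophage-like cells only Ltbp3, a latency gene, did so, at 12.4 CPM in Angptl4+/+ and 5.08 CPM in Angptl4-/- wounds at 5 dpw.

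**Figure D3:**
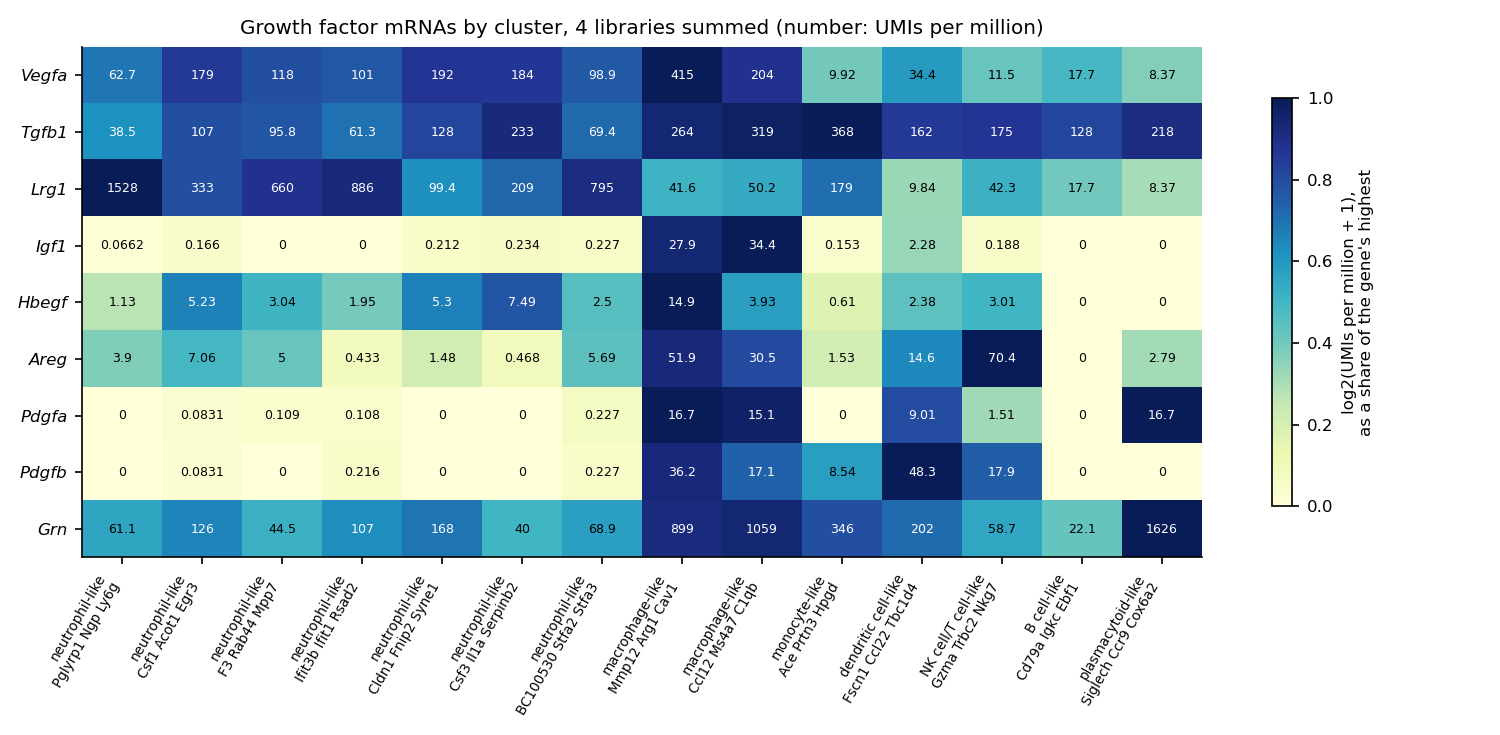
Level of each gene in 14 clusters with the 4 libraries summed. Numbers are UMIs per 1000000, and the colour is log2(UMIs per 1000000 + 1) as a share of the highest value of that gene. Lrg1 runs from 99.4 to 1528 across the neutrophil-like clusters, and Igf1 is darkest in the macrophage-like columns.

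In macrophage-like cells, 6 of the 9 members were past 2-fold between 5 and 1 dpw in Angptl4+/+ wounds, 3 higher and 3 lower, where 12.7% of all genes with enough UMIs passed 2-fold, 8.2% higher and 4.5% lower. In Angptl4-/- wounds 5 of 9 did, 2 higher and 3 lower, with 9.43% of all genes, 5.67% higher and 3.76% lower. Between genotypes 1 of 9 did at 1 dpw, with 1.27% of all genes, and 1 of 9 at 5 dpw, with 1.79%. The median log2 ratio of the 9 members was 0.00 and -0.29 between days in Angptl4+/+ and Angptl4-/- cells, and 0.13 and 0.01 between genotypes at 1 and 5 dpw. The medians of all genes with enough UMIs were 0.17 and 0.09 between days and 0.02 and -0.02 between genotypes.

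**Figure D4:**
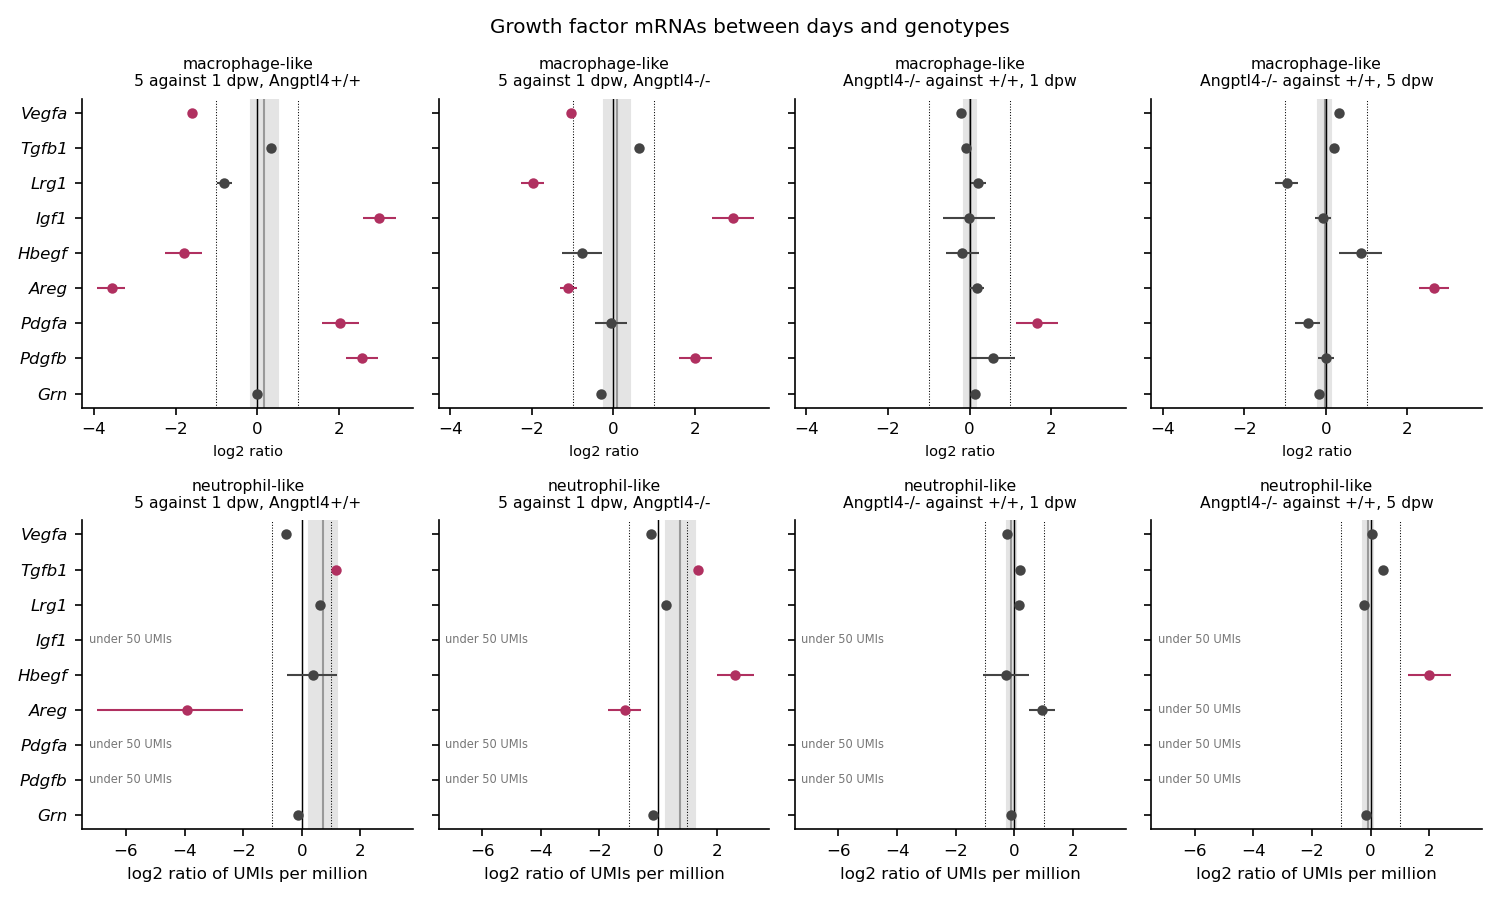
Log2 ratio of UMIs per 1000000 between days and between genotypes in macrophage-like (top) and neutrophil-like cells (bottom). Points are log2 ratios with exact conditional binomial 95% intervals, red where past 2-fold, the dotted lines mark 2-fold, and the grey band and line are the quartiles and median of all genes. In macrophage-like cells Igf1 and Pdgfb lie near 2 to 3 in both day panels, and in neutrophil-like cells the grey line lies at 0.72 and 0.75 in the day panels.

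Igf1 and Pdgfb were the members whose macrophage-like level was past 2-fold higher at 5 dpw in both genotypes. Igf1 was at 6.23 CPM (4.71–8.09) at 1 dpw and 49.2 CPM (45.5–53.2) at 5 dpw in Angptl4+/+ wounds. In Angptl4-/- wounds it was at 6.16 CPM (4.32–8.53) and 46.8 CPM (42.1–51.9). At 5 against 1 dpw this was a log2 ratio of 2.98 (2.59 to 3.40) for Angptl4+/+ and 2.92 (2.43 to 3.46) for Angptl4-/- cells. Between genotypes the log2 ratio was -0.02 (-0.66 to 0.61) at 1 dpw and -0.07 (-0.26 to 0.12) at 5 dpw. Both intervals hold 0.

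Igf1 came from few cells. A UMI was found in 1.91% of Angptl4+/+ macrophage-like cells at 1 dpw and 13.3% at 5 dpw and in 1.30% and 15.3% of Angptl4-/- cells, and the share thinned to 1000 UMIs per cell was 0.551%, 3.52%, 0.510% and 3.14% in the same order. Neutrophil-like cells had 0 to 3 Igf1 UMIs per library. In the Angptl4-/- library at 1 dpw a single cell held 21 of the 36 UMIs, and without it the level was 2.58 CPM, below the 5.75 CPM of dendritic cell-like cells, whose 7 UMIs all lay in 1 cell. With the richest cell of each library left out, the log2 ratio of Angptl4-/- to Angptl4+/+ at 1 dpw was -1.06 and that of 5 to 1 dpw in Angptl4-/- cells 4.10, so the 1 dpw comparison of genotypes rests on a few cells. Over clusters and libraries Igf1 ran closest to Ccl24, Folr2 and Cbr2, with Pearson r of 0.88, 0.87 and 0.85, which are markers of resident-type macrophages.

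Of 13 other IGF ligands, receptors and binding proteins, 6 had enough UMIs in macrophage-like cells, of which 1 was past 2-fold higher and 2 lower at 5 dpw in Angptl4+/+ wounds, and 1 higher and 3 lower in Angptl4-/- wounds. Igfbp4, which encodes an IGF binding protein, was at 3.23 and 14.8 CPM in Angptl4+/+ and 4.62 and 17.7 CPM in Angptl4-/- cells at 1 and 5 dpw. Igf1r, which encodes the receptor of IGF-1, was a neutrophil mRNA here, with 530.7 to 627 CPM in neutrophil-like cells against 33.2 to 70.6 CPM in macrophage-like cells.

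Pdgfb was at 7.01 CPM (5.39–8.97) and 41.4 CPM (38.0–45.1) at 1 and 5 dpw in Angptl4+/+ macrophage-like cells. In Angptl4-/- cells it was at 10.4 CPM (7.99–13.4) and 41.7 CPM (37.3–46.5). Between days its log2 ratio was 2.56 (2.18 to 2.96) for Angptl4+/+ and 2.0 (1.60 to 2.42) for Angptl4-/- cells. With each cell weighing the same the values were 1.62 and 1.94, so both stayed past 2-fold and the order of the genotypes turned. With cells thinned to 1000 UMIs they were 1.61 and 3.00. A Pdgfb UMI was then left in 0.383% to 3.62% of macrophage-like cells of a library, so the thinned values rest on few UMIs. Dendritic cell-like cells had Pdgfb at both times, with 59.8 and 40.2 CPM in Angptl4+/+ and 65.7 and 46.1 CPM in Angptl4-/- wounds. At 1 dpw dendritic cell-like cells were therefore above macrophage-like cells in both genotypes, while at 5 dpw the intervals of the 2 classes overlapped. Neutrophil-like cells had 1 Pdgfb UMI in each library.

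Pdgfa, the other PDGF chain, differed between genotypes at 1 dpw. Macrophage-like cells held it at 5.45 CPM (4.03–7.21) and 22.4 CPM (19.9–25.1) at 1 and 5 dpw in Angptl4+/+ wounds, and at 17.1 CPM (13.9–20.8) and 16.6 CPM (13.8–19.7) in Angptl4-/- wounds. The Angptl4+/+ library at 1 dpw was thus the low one of the 4. The log2 ratio of Angptl4-/- to Angptl4+/+ was 1.65 (1.14 to 2.17) at 1 dpw and -0.44 (-0.75 to -0.13) at 5 dpw. Between days it was 2.04 (1.60 to 2.51) for Angptl4+/+ and -0.05 (-0.44 to 0.34) for Angptl4-/- cells. With cells thinned to 1000 UMIs the Pdgfa values were 2.98 and -1.08 between genotypes and 2.85 and -1.20 between days. A Pdgfa UMI was then left in 0.275% to 1.86% of macrophage-like cells of a library, so these values rest on few UMIs. Before thinning, the 1 dpw counts were 49 and 100 UMIs, in 1.91% and 5.31% of cells.

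Outside macrophage-like cells Pdgfa was sparse. Dendritic cell-like cells had 7 to 49 UMIs per library, monocyte-like cells 0 in each library and neutrophil-like cells 0 in 3 libraries and 4 in the Angptl4-/- library at 5 dpw. A count of 0 allows a level of up to 1.36 to 2.49 CPM in monocyte-like cells, at 3 UMIs per library. The called dendritic cell-like ratios, 1.47 (0.32 to 2.85) between days in Angptl4+/+ and -1.06 (-1.95 to -0.24) between genotypes at 5 dpw, were lost or turned at equal depth. A Pdgfa UMI was then left in 0% to 2.25% of dendritic cell-like cells of a library, so the thinned values rest on few UMIs. Over clusters and libraries Pdgfa ran closest to Dab2 and Anpep, both at Pearson r 0.91, and Pdgfb to Marveld1 at 0.96. Among the 9 members, the pairs most alike were Igf1 with Pdgfa at 0.82 and Pdgfa with Pdgfb at 0.79. Of 5 other PDGF ligands and receptors only 1 had enough UMIs in macrophage-like cells.

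Platelets also carry PDGF and TGF-β1. In macrophage-like cells the platelet marker list summed to 876 to 2653 CPM with 3 of its 6 genes at 0, the counted ones including the chemokine genes Pf4 and Ppbp, and in neutrophil-like cells to 5.35 to 10.3 CPM with 2 at 0. The fibroblast markers summed to 0.223 to 9.12 CPM and the keratinocyte markers to 0.685 to 2.61 CPM in macrophage-like cells.

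Areg had the widest span between libraries of the 9 members in macrophage-like cells. Macrophage-like cells held it at 72.4 CPM (67.0–78.2) at 1 dpw and 6.12 CPM (4.86–7.62) at 5 dpw in Angptl4+/+ wounds. In Angptl4-/- wounds they held 82.5 CPM (75.3–90.2) and 38.4 CPM (34.2–43.1). The Angptl4+/+ library at 5 dpw stood below the other 3, whose intervals did not reach it. Comparing genotypes, the log2 ratio of Angptl4-/- to Angptl4+/+ was 0.19 (0.01 to 0.36) at 1 dpw and 2.65 (2.29 to 3.03) at 5 dpw. Between days it was -3.56 (-3.92 to -3.23) for Angptl4+/+ and -1.10 (-1.32 to -0.89) for Angptl4-/- cells, and the second of these was -0.83 with every cell thinned to 1000 UMIs, no longer past 2-fold.

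These UMIs lay in few cells. They were in 107 and 20 macrophage-like cells at 1 and 5 dpw in Angptl4+/+ wounds and in 76 and 34 in Angptl4-/- wounds, or 9.29%, 1.29%, 8.97% and 5.27% of the class. The thinned shares were 4.04%, 0.398%, 4.59% and 2.36%. At 5 dpw the richest cell held 33 of 80 UMIs in the Angptl4+/+ and 74 of 295 in the Angptl4-/- library, and without these cells the levels were 3.6 and 28.9 CPM, so the order of the genotypes did not rest on them.

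NK cell/T cell-like cells also carried Areg, from even fewer cells. Their level was 475 CPM (397–563) and 71.1 CPM (60.7–82.8) at 1 and 5 dpw in Angptl4+/+ and 62.3 CPM (36.9–98.5) and 23.8 CPM (18.0–30.8) in Angptl4-/- wounds, from 6, 19, 4 and 15 cells. In the Angptl4+/+ library at 1 dpw a single cell held 100 of the 132 UMIs, and the level without it was 125 CPM. In this class the Areg log2 ratio of Angptl4-/- to Angptl4+/+ was -2.93 (-3.73 to -2.21) at 1 dpw and -1.58 (-2.04 to -1.14) at 5 dpw. Without likely doublets the 1 dpw value was -0.91, and with every cell thinned to 1000 UMIs the values were -0.42 and -0.76, so neither stayed past 2-fold under thinning. An Areg UMI was then left in 2.28% to 8.33% of NK cell/T cell-like cells of a library, so the thinned values rest on few UMIs. Markers of type 2 innate lymphoid cells, known amphiregulin producers, summed to 249 to 543 CPM and those of regulatory T cells to 499 to 1237 CPM in this class, against at most 17.6 and 5.34 CPM in macrophage-like cells. In dendritic cell-like cells the lists summed to 18.1 to 29.9 and 138 to 194 CPM. Up to 3 genes of the innate lymphoid list were at 0 in a library in NK cell/T cell-like cells. Which cell types among NK cell/T cell-like cells held the Areg UMIs was not tested. Dendritic cell-like cells had 61.7 and 1.00 CPM in Angptl4+/+ and 20.5 and 5.20 CPM in Angptl4-/- wounds, from 97, 4, 25 and 15 UMIs. Neutrophil-like cells held Areg at 0.231 to 6.60 CPM, from 228 UMIs in 44 cells over the 4 libraries. There its log2 ratios of 5 to 1 dpw were -3.90 for Angptl4+/+ and -1.13 for Angptl4-/- cells, both past 2-fold. The second was not past 2-fold with at least 500 genes and at most 5% mitochondrial UMIs. In neutrophil-like cells at 1 dpw the log2 ratio of Angptl4-/- to Angptl4+/+ was 0.94. It was 1.03, past 2-fold, with median-of-ratios size factors.

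Hbegf, on the minus strand at chr18:36504927-36515805, was counted 593 times in 267 cells, and in macrophage-like cells it was lower at 5 than at 1 dpw. Macrophage-like cells held it at 16.2 CPM (13.7–19.1) and 4.67 CPM (3.57–6.0) at 1 and 5 dpw in Angptl4+/+ and at 14.4 CPM (11.5–17.8) and 8.47 CPM (6.54–10.8) in Angptl4-/- wounds. Between days the log2 ratio was -1.80 (-2.25 to -1.36) for Angptl4+/+ and -0.76 (-1.25 to -0.28) for Angptl4-/- cells, the first past 2-fold. The second was past 2-fold under 4 alternatives, at -1.43 without likely doublets, -1.08 with cells thinned to 1000 UMIs, -1.04 with each cell weighing the same and -1.15 at resolution 1.0. Between genotypes the Hbegf log2 ratio was -0.18 (-0.58 to 0.22) at 1 dpw and 0.86 (0.33 to 1.39) at 5 dpw, neither past 2-fold. The 5 dpw value was 0.17 without likely doublets and 1.28, past 2-fold, at resolution 1.0.

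In neutrophil-like cells Hbegf stood apart in the Angptl4-/- library at 5 dpw. The level was 1.78 CPM (1.24–2.47) and 2.31 CPM (1.41–3.56) at 1 and 5 dpw in Angptl4+/+ wounds, and 1.47 CPM (0.971–2.14) and 9.11 CPM (7.5–11.0) in Angptl4-/- wounds, from 35, 20, 27 and 112 UMIs. The log2 ratio of Angptl4-/- to Angptl4+/+ was -0.27 (-1.05 to 0.50) at 1 dpw and 1.98 (1.29 to 2.75) at 5 dpw. Of the members with enough UMIs in this class, this was the 1 of 5 past 2-fold between genotypes at 5 dpw, where 1.92% of all genes with enough UMIs were, and 0 of 6 were at 1 dpw, where 1.81% were. The cells with a UMI numbered 50 of 3506 in the Angptl4-/- library at 5 dpw, and that class then held 60.9% of the library's Hbegf UMIs, against 18.4% to 22.5% in the other libraries. The log2 ratio of 5 to 1 dpw in Angptl4-/- neutrophil-like cells was 2.63 (2.01 to 3.29), and 1.88 after scaling by median-of-ratios size factors. Between days 2 of 6 members were past 2-fold in Angptl4+/+ and 3 of 6 in Angptl4-/- neutrophil-like cells, which is to be read beside the 36.5% and 39.1% of all genes.

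Ereg, which encodes the EGF receptor ligand epiregulin, went with Areg and Hbegf in macrophage-like cells between days. It was at 12.02 and 0.459 CPM in Angptl4+/+ and 12.7 and 1.17 CPM in Angptl4-/- cells at 1 and 5 dpw. Of 14 other EGF family ligands, receptors and sheddases, 6 had enough UMIs in Angptl4+/+ macrophage-like cells, of which 2 were past 2-fold lower at 5 dpw and 0 higher, and 5 in Angptl4-/- cells, of which 1 was lower. None passed 2-fold between genotypes in macrophage-like or neutrophil-like cells. Adam17, which encodes the sheddase that frees both ligands, was at 148 to 207 CPM in macrophage-like cells and 102 to 112 CPM in neutrophil-like cells.

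Grn differed little between libraries in macrophage-like cells. Macrophage-like cells held 979 CPM (959–1000) and 976 CPM (959.5–993) at 1 and 5 dpw in Angptl4+/+ and 1068 CPM (1042–1095) and 871 CPM (851–893) in Angptl4-/- wounds. The log2 ratios were between -0.29 and 0.13 in the 4 comparisons, none past 2-fold. Monocyte-like cells held 308 to 387 CPM, dendritic cell-like cells 173 to 229 CPM and neutrophil-like cells 76.4 to 92.9 CPM, an order seen in all 4 libraries. NK cell/T cell-like cells, at 37.9 to 201 CPM, were above neutrophil-like cells at 1 dpw, in Angptl4+/+ wounds within counting error, and below them at 5 dpw. Their log2 ratios of 5 to 1 dpw were -1.46 (-2.08 to -0.80) for Angptl4+/+ and -1.82 (-2.28 to -1.35) for Angptl4-/- cells. Neither stayed past 2-fold after thinning, which left few UMIs. The 33 plasmacytoid dendritic cell-like cells had Grn at 1383 to 2033 CPM from 583 UMIs in all, which is above the macrophage-like level of the same library, though the cluster was too small for the class comparison.

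Psap, which encodes prosaposin, a lysosomal partner of progranulin, was the gene most like Grn over clusters and libraries (Pearson r 0.93), with 3330 to 3970 CPM in macrophage-like cells. Of 12 progranulin partners and processing genes, 11 had enough UMIs in macrophage-like cells, of which 1 was past 2-fold lower at 5 dpw in Angptl4+/+ and 2 were in Angptl4-/- wounds, and 0 were higher. Slpi, which encodes the inhibitor that shields progranulin from elastase, was at 1281 and 168 CPM in Angptl4+/+ and 1102 and 266 CPM in Angptl4-/- macrophage-like cells at 1 and 5 dpw. Slpi was at 5514 to 6072 CPM in neutrophil-like cells, and macrophage-like cells carried the neutrophil markers at a summed 2193 to 12327 CPM, against 106761 to 217898 CPM in neutrophil-like cells. The part of that RNA in the Slpi ratio was not tested.

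Of 23 other repair growth factors, 12 had enough UMIs in Angptl4+/+ macrophage-like cells, of which 3 were past 2-fold higher and 6 lower at 5 dpw, and 10 in Angptl4-/- cells, of which 1 was higher and 4 were lower. Over all genes 12.7% and 9.43% passed 2-fold. The median log2 ratio of the list was -0.58 and -0.61, against 0.17 and 0.09 over all genes. Inhba, which encodes the activin A chain, was at 601 and 33.0 CPM at 1 and 5 dpw in Angptl4+/+ and at 494 and 41.6 CPM in Angptl4-/- macrophage-like cells. Spp1, which encodes the matrix protein osteopontin, was at 5090 and 1295 CPM and at 3738 and 923 CPM. In Angptl4-/- neutrophil-like cells Spp1 was higher, at 8684 and 3769 CPM at 1 and 5 dpw. The part of neutrophil RNA in the Spp1 of macrophage-like cells was not tested. None of the list passed 2-fold between genotypes at 1 dpw in macrophage-like or neutrophil-like cells, and at 5 dpw 2 did in macrophage-like cells, Bmp2 and Gdf15, both lower in Angptl4-/- wounds.

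The 2 macrophage-like clusters differed in level but shared the direction of most members between days. The cluster led by Mmp12, Arg1 and Cav1 held 2815 cells and the cluster led by Ccl12, Ms4a7 and C1qb held 1381. Vegfa was higher in the first cluster in every library, with 635 and 234 CPM at 1 and 5 dpw in Angptl4+/+ and 567 and 321 CPM in Angptl4-/- wounds, against 361, 96.9, 338 and 128 CPM in the second. The log2 ratios of 5 to 1 dpw were -1.44 and -0.82 in the first and -1.90 and -1.40 in the second, for Angptl4+/+ and Angptl4-/- cells. In the first cluster of Angptl4-/- wounds the Vegfa difference was thus under 2-fold.

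The genotype differences of Areg and Pdgfa were present in both clusters. Both clusters come from the same libraries, so they are not separate checks. Areg at 5 dpw was at 9.51 CPM in Angptl4+/+ and 60.6 CPM in Angptl4-/- cells of the Mmp12 cluster and at 1.61 and 17.8 CPM in the Ccl12 cluster. The log2 ratios were 2.67 (2.28 to 3.08) and 3.47 (2.47 to 4.66), the second from 71 Angptl4-/- and 9 Angptl4+/+ UMIs. Pdgfa at 1 dpw was at 6.60 and 19.2 CPM in the Mmp12 cluster and at 3.55 and 14.9 CPM in the Ccl12 cluster. Its log2 ratios were 1.54 (0.92 to 2.18) and 2.06 (1.11 to 3.12), the second from 42 Angptl4-/- and 12 Angptl4+/+ UMIs. Pdgfb was the more abundant in the Mmp12 cluster in all 4 libraries, at 10.2 to 60.1 CPM against 1.78 to 27.7 CPM. Igf1 had no such order, with 46.5 and 52.9 CPM in the 2 clusters of Angptl4+/+ and 38.7 and 54.3 CPM in those of Angptl4-/- wounds at 5 dpw. At 1 dpw Igf1 had 30 and 32 UMIs in the Mmp12 cluster of Angptl4+/+ and Angptl4-/- wounds, and 26 and 4 in the Ccl12 cluster. Lrg1 went in opposite directions between genotypes at 1 dpw. Its log2 ratio was -0.45 (-0.77 to -0.14) in the Mmp12 cluster and 0.47 (0.23 to 0.71) in the Ccl12 cluster.

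**Figure D5:**
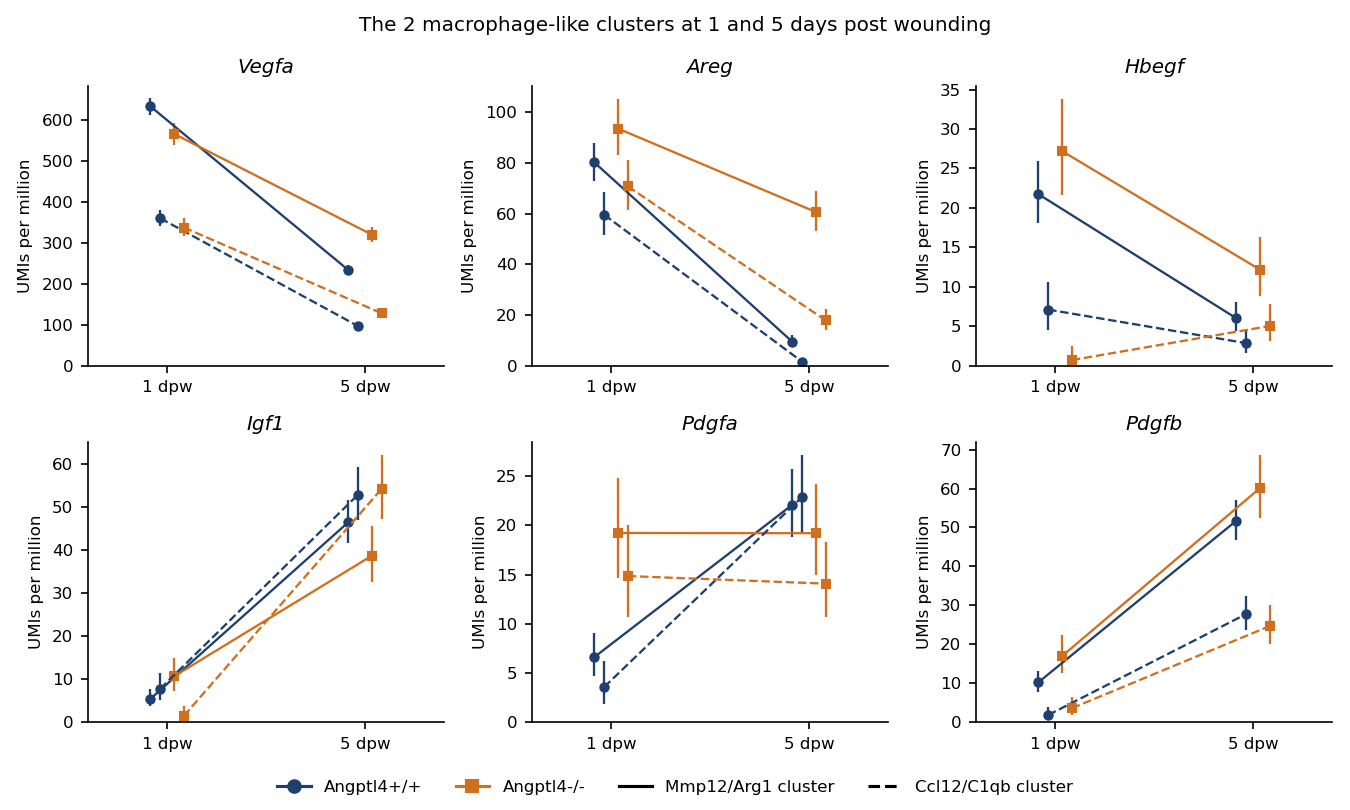
Levels of 6 genes in the 2 macrophage-like clusters at 1 and 5 dpw. The y axis is UMIs per 1000000 from 0, points are single libraries with exact Poisson 95% intervals, solid lines are the Mmp12/Arg1 cluster and dashed lines the Ccl12/C1qb cluster. Vegfa runs from 635 to 234 and Pdgfb from 10.2 to 51.7 along the solid Angptl4+/+ line, and the Areg lines of the genotypes part at 5 dpw.

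Summed over the 5 classes, 3 of 27 gene and class pairs passed 2-fold between genotypes at 1 dpw, where 1.85% of all such pairs did, and 6 of 28 at 5 dpw, where 1.87% did. Between days 16 of 29 passed in Angptl4+/+ wounds, where 16.8% of all pairs did, and 13 of 27 in Angptl4-/- wounds, where 15.5% did. The median log2 ratios of the members were -0.01 and -0.06 between genotypes and -0.28 and -0.29 between days.

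Over all sorted CD45+ cells of a library, levels depended also on how many cells of each class were sorted. Wound cells other than leukocytes were not sequenced. Neutrophil-like cells were 72.8% and 54.7% of Angptl4+/+ cells and 77.1% and 74.0% of Angptl4-/- cells at 1 and 5 dpw, and macrophage-like cells 21.5% and 31.4%, and 17.7% and 13.6%. Over all cells, fewer cells of a class and less mRNA per cell cannot be told apart. Lrg1 over all cells had a log2 ratio of 5 to 1 dpw of -0.41 in Angptl4+/+ wounds, against 0.55 with the classes held at a fixed mix. In the fixed mix each class kept its share of the UMIs, not of the cells, of the Angptl4+/+ library at 1 dpw. Within neutrophil-like cells this Lrg1 ratio was 0.64 by CPM and -0.08 with median-of-ratios size factors. The fixed-mix value of Lrg1 therefore gives no direction between days. Areg over all cells had a log2 ratio of Angptl4-/- to Angptl4+/+ of 0.81 at 5 dpw, against 2.35 at a fixed mix, and for Pdgfa the values were -1.0 and -0.41.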

How the data were processed

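Live CD45+ wound cells of 4 libraries, 1 per genotype and time point, were analysed. The authors aligned the reads to mm10 and deposited raw UMI counts per gene and barcode from Cell Ranger 3.1.0, and used Seurat 3.0 for their own clustering. The versions are those of the submitters' processing notes. Counts of mRNA 3' ends were not scaled for gene length. Levels of different genes were not compared.

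Barcodes with at least 200 genes and at most 10% mitochondrial UMIs were kept (19827 of 20069). Cells were joined with Seurat 5.3.0 anchors on 2000 variable genes, without the members and list genes, with 30 dimensions, clustered at resolution 0.5, and named from marker lists. Shares can differ from the study's because the names were rebuilt. Doublet scores (scanpy 1.11.5) marked almost no cell at the automatic cut, so the 4% of cells with the highest score per library were treated as likely doublets, kept here and left out as an alternative. UMIs were summed per class with Python 3.11.15, numpy 2.4.6 and scipy 1.17.1 and divided by the class total. For shares at equal depth, each cell was thinned to 1000 UMIs, which left out 98, 157, 86 and 101 shallower cells of the Angptl4+/+ libraries at 1 and 5 dpw and the Angptl4-/- libraries at 1 and 5 dpw. Intervals of shares are exact Clopper-Pearson intervals. The ratio step was tested on simulated data. A gene from the pathway lists was named only where it was among the 8 largest ratios past 2-fold in macrophage-like or neutrophil-like cells or among the 3 of its list with the most UMIs. Not all such genes were named. Genes most like a member were ranked by Pearson correlation of log2(CPM + 1) over clusters and libraries with at least 20 cells. The members, lists and comparisons were chosen with earlier results of these data known.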

Additional observations from a re-analysis of the deposited data

Results flagged for a closer look

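Areg was past 2-fold between genotypes at 5 dpw in opposite directions in 2 classes. In macrophage-like cells the log2 ratio of Angptl4-/- to Angptl4+/+ was 2.65 (2.29 to 3.03), from 295 and 80 UMIs. In NK cell/T cell-like cells it was -1.58 (-2.04 to -1.14), from 57 and 167 UMIs. Each class had 1 library per genotype, and the difference between the classes was not tested. Over 11 alternative ways of processing, the macrophage-like value lay between 2.29 and 3.00 and the NK cell/T cell-like value between -2.02 and -0.60.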

How the results depend on the processing

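Of the 38 gene and class pairs called over the 4 comparisons, those still past 2-fold numbered 36 under a filter of at least 500 genes and at most 5% mitochondrial UMIs, 36 without integration, 35 at resolution 1.0, 38 with the list genes among the variable genes, 34 without likely doublets, 36 with median-of-ratios size factors, 24 after thinning and 33 with each cell given equal weight. Leaving out 15 cells with basophil, mast or red cell markers kept 38 and leaving out the richest cell kept 36, and both alternatives were chosen after seeing the data. Calls between genotypes at 1 dpw were 3, and 5 under the stricter filter, 7 with a minimum of 10 UMIs and 0 after thinning. At 5 dpw they were 6, and 3 without likely doublets, 3 with equal weight per cell and 0 after thinning. Between days 16 calls in Angptl4+/+ wounds became 4 and 13 in Angptl4-/- wounds became 1 after thinning, where the minimum of 50 UMIs left 12 and 15 pairs between genotypes and 15 and 10 between days. After thinning 90 of 110 ratios, called or not, kept their sign. Of the called pairs 3 turned sign, which were Pdgfa in dendritic cell-like cells between genotypes at 5 dpw, to 0.0098, Pdgfa in dendritic cell-like cells between days in Angptl4+/+ wounds, to -0.47, and Grn in NK cell/T cell-like cells between days in Angptl4+/+ wounds, to 0.16. After thinning, a Pdgfa UMI was left in 0% to 2.25% of dendritic cell-like cells of a library. A Grn UMI was left in 2.21% to 2.78% of NK cell/T cell-like cells, so the turned signs rest on few UMIs. The Areg ratio of genotypes in NK cell/T cell-like cells at 1 dpw was -2.93, -0.91 without likely doublets and, on few UMIs, -0.42 after thinning. The number of members highest in the same class in all 4 libraries ran from 4 to 7. At resolution 1.0, 3 clusters stayed unnamed and under the stricter filter 1. No paired analysis was possible because each group was 1 library, and no library could be left out. The number of UMIs limits Hbegf, Pdgfa, Igf1 and Areg most, since each was seen in under 2% of all cells.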
